A study of Mus musculus with 5 samples.

Results

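Acta2, Tagln, Myl9, Tgm2 and Tpm2 are 5 of the 16347 genes measured, and all 5 had reads in the table. Acta2, Tagln, Myl9 and Tpm2 encode parts of the smooth muscle contractile apparatus. Tgm2 encodes a transglutaminase, an enzyme that cross-links proteins, and is not itself a contractile protein. The genes were chosen from earlier values of these same cells, in which they stood out in ependymal cells of some ventricles, so their levels across regions are given as a description with no test.

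Ependymal cells are the ciliated epithelium that lines the brain ventricles and the central canal of the spinal cord. Their beating cilia, built under control of the transcription factor Foxj1, move cerebrospinal fluid. In smooth muscle, alpha actin filaments slide on myosin whose regulatory light chain is phosphorylated, and tropomyosin and transgelin bind along the actin. Transcription of these genes in muscle depends on serum response factor (SRF), which binds a DNA element called the CArG box, with cofactors of the myocardin family.

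Single cells were sorted from tissue of 3-month-old mice and sequenced by Smart-seq2, a full-length method that counts reads, not molecules. Cells of FoxJ1CreERT2 R26TdT mice, in which an inducible Cre under Foxj1 switches on a red reporter, came from the lateral ventricle (240 cells), the third ventricle (245 cells), the midbrain aqueduct and the spinal cord (114 cells). These came from 10 animals, 5 females and 5 males, and a further 327 midbrain cells came from 7 female Nkx2-2Cre R26TrapC mice. Midbrain cells of the Foxj1 line were split by Ccdc153, a gene of mature ependymal cells, at 1000 CPM (the gene's reads scaled to a common total per cell), into 317 cells at or above it and 230 below. Every sample was a single pool with no replicate and no cell was tied to an animal, so no test between regions was possible. The assignment of 2 sets of cells, named Forebrain and Tanycytes in the table, to the lateral and the third ventricle was made by anatomy and by elimination, since those names are not in any sample title.

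The ependymal label was checked against Ccdc153 in the groups not split by this gene. Its summed level was 3823 CPM for lateral ventricle cells, 3636 for those of the third ventricle, 3583 in the Ccdc153-high midbrain cells and 1986 in the spinal cord. It was 226 CPM in the Ccdc153-low midbrain cells and 158 in the Nkx2-2 line. The values of the Ccdc153-high and Ccdc153-low midbrain cells follow from the split and check nothing. Of ependymal markers not used for the split, Foxj1 was at 590 against 378 CPM in these 2 sets and Tmem212 at 3568 against 257. Of the cells not split by Ccdc153, 1 of the lateral ventricle, 5 of the third ventricle and 15 of the spinal cord lay under 1000 CPM of it. The median depth was 691446 to 759184 reads per cell in the 4 ependymal groups, and the median number of detected genes was 5435.5, 5341, 4866 and 3979.5 in the lateral ventricle, the third ventricle, the Ccdc153-high midbrain cells and the spinal cord. The number of detected genes thus fell in the same order as the level of Acta2, and its part in the regional differences was not tested.

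Acta2 encodes smooth muscle alpha actin, the filament protein of the contractile apparatus. The gene lies at chr19:34241090-34255590 on the minus strand of GRCm38 and overlapped no other annotated gene. Its level over summed reads was 728 CPM in the lateral ventricle (exact Poisson 95% interval 724 to 732, which covers counting error only, as do all intervals below). The level was 441 CPM in the third ventricle (438 to 444), 202 in the Ccdc153-high midbrain cells (200 to 204) and 71.7 in the spinal cord (70.0 to 73.4). It was 1.48 CPM in the Ccdc153-low midbrain cells and 2.00 in the Nkx2-2 line. Acta2 was therefore highest in the lateral ventricle and low in cells with little Ccdc153.

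Myl9, the regulatory light chain of smooth muscle myosin (chr2:156775420-156781658, plus strand), had a different order. Its level was 567 CPM in the third ventricle (563 to 570), 458 in the lateral ventricle (455 to 461), 213 in the Ccdc153-high midbrain cells (211 to 215) and 124 in the spinal cord (122 to 126). In the Ccdc153-low midbrain cells it was 4.79 CPM, and in the Nkx2-2 line 5.42. The third ventricle led for Myl9 and the lateral ventricle for Acta2. Per kilobase of exon, which allows the genes to be compared, Myl9 stood at 394 and Acta2 at 332 CPM per kb in the lateral ventricle, against 488 and 201 in the third ventricle.

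Of the 2 actin-binding members, Tagln (transgelin, also called SM22 alpha, chr9:45929619-45936058, minus strand) was seen almost wholly outside the midbrain. Its level was 101 CPM in the lateral ventricle (99.9 to 103), 95.6 in the third ventricle (94.3 to 97.0), 26.1 in the spinal cord (25.1 to 27.1) and 5.51 in the Ccdc153-high midbrain cells (5.22 to 5.80). Tagln was thus the member for which the spinal cord stood above the midbrain by the widest margin. Its 3′ end overlaps Pcsk7 on the opposite strand, and whether counting used strand is not given in the sources used here.

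Tpm2 (beta tropomyosin, chr4:43514711-43523765, minus strand) was the rarest member. Its level was 10.8 CPM in the third ventricle (10.4 to 11.3), 5.54 in the lateral ventricle (5.21 to 5.90), 4.71 in the spinal cord (4.29 to 5.17) and 3.47 in the Ccdc153-high midbrain cells (3.25 to 3.71). In the Ccdc153-low midbrain cells it had 2 reads in all, and in the Nkx2-2 line 5.

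Tgm2 (chr2:158116402-158146436, minus strand), the transglutaminase, had similar levels in the lateral ventricle, at 63.1 CPM (61.9 to 64.2), and in the third ventricle, at 66.3 (65.2 to 67.5). It was at 31.4 CPM in the Ccdc153-high midbrain cells (30.7 to 32.1), 5.37 in the spinal cord (4.91 to 5.86) and 3.35 in the Ccdc153-low midbrain cells. The gene overlaps Rprd1b on the opposite strand. Per kilobase of exon in the lateral ventricle, Tagln stood at 51.0, Tgm2 at 13.7 and Tpm2 at 1.91 CPM per kb, so the 5 transcripts differed widely in abundance.

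Promoter sequence is shown because Acta2 and Myl9, the 2 most abundant members, both carry CArG-like elements close to the start site. The 250 bases before the start were taken from RefSeq on GRCm38.p6, which listed 3 of the 5 members, and are written 5′ to 3′ on the gene's own strand. The RefSeq start sites lie inside the gene bounds given above, which are the widest of all GENCODE transcripts, so each window overlaps its gene in part. Capitals mark matches to the CArG box, which is CC, then 6 letters that are each A or T, then GG, with at most 1 letter off. The Acta2 window is chr19:34255374-34255623, that of Myl9 chr2:156775214-156775463 and that of Tpm2 chr4:43523555-43523804.
Acta2: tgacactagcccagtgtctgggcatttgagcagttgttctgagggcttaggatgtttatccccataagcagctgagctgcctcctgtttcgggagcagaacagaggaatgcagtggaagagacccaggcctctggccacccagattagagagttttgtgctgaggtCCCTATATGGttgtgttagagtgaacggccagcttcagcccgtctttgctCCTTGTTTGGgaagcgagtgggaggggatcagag
Myl9: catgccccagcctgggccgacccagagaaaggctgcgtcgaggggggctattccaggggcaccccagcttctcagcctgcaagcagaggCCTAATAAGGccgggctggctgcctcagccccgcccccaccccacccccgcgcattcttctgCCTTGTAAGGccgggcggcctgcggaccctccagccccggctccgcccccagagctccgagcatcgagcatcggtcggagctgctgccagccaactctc
Tpm2: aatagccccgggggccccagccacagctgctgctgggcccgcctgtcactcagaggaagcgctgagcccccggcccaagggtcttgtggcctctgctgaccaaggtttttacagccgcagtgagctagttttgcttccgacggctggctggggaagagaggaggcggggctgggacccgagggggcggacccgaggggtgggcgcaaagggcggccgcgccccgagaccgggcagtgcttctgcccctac

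In Acta2 the elements were CCCTATATGG, at positions -84 to -75 from the start site, and CCTTGTTTGG, at -34 to -25, each with 1 letter off. Myl9 held an exact match, CCTAATAAGG, at -161 to -152, and CCTTGTAAGG, with 1 letter off, at -99 to -90. The Tpm2 window held no such letters. The Acta2 window also held the muscle element MCAT (CATTCC on either strand, read here as GGAATG) at -146 to -141. Among 32851 promoter windows of the same length, 1.47% held an exact CArG box, 18.6% held a match with at most 1 letter off on either strand, and 12.6% held MCAT. These matches describe the letters and not binding.

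Within each region the genes were read unevenly, with most cells either well above 100 CPM or near 0. In the lateral ventricle 72.1% of cells had a read of Acta2, and 139 of the 240 cells stood at or above 100 CPM, 54 of them at or above 1000. Only 8 cells lay between 10 and 100 CPM. The median cell had 185 CPM and the highest 8807.

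The share of Acta2-positive cells fell from region to region with the level. At or above 100 CPM stood 111 of 245 cells in the third ventricle, 94 of 317 in the Ccdc153-high midbrain cells and 16 of 114 in the spinal cord. The median cell had 35.2 CPM in the third ventricle and 0 in the other 2 groups. The tenth of cells with most Acta2 held 52.3% of its summed CPM in lateral ventricle cells, 61.1% in those of the third ventricle, 71.8% in the midbrain and 86.3% in the spinal cord, so fewer cells carried the level where the level was lower.

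Myl9 was the most widely read member. At or above 100 CPM stood 169 of 240 lateral ventricle cells, 204 of 245 cells of the third ventricle, 136 of 317 Ccdc153-high midbrain cells and 44 of 114 spinal cord cells. Its median cell had 312 CPM in the lateral ventricle and 381 in the third ventricle, against 1.66 in the midbrain and 0 in the spinal cord. The tenth of cells with most Myl9 held 39.6% of its CPM in the lateral ventricle and 31.8% in the third ventricle.

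The remaining members were confined to smaller shares of cells. Tagln reached 100 CPM in 44 lateral ventricle cells, 40 cells of the third ventricle, 8 midbrain cells and 9 spinal cord cells, and its highest cells had 2477, 3083, 408 and 654 CPM. Tgm2 reached 100 CPM in 54, 69, 39 and 2 cells of the same groups, with highest cells at 959, 523, 821 and 185 CPM. Tpm2 did so in 6, 10, 5 and 1 cells. The median cell of every group had 0 CPM of these genes. The plot of single cells shows this split between cells near 0 and cells above 100 CPM.

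**Figure D1:**
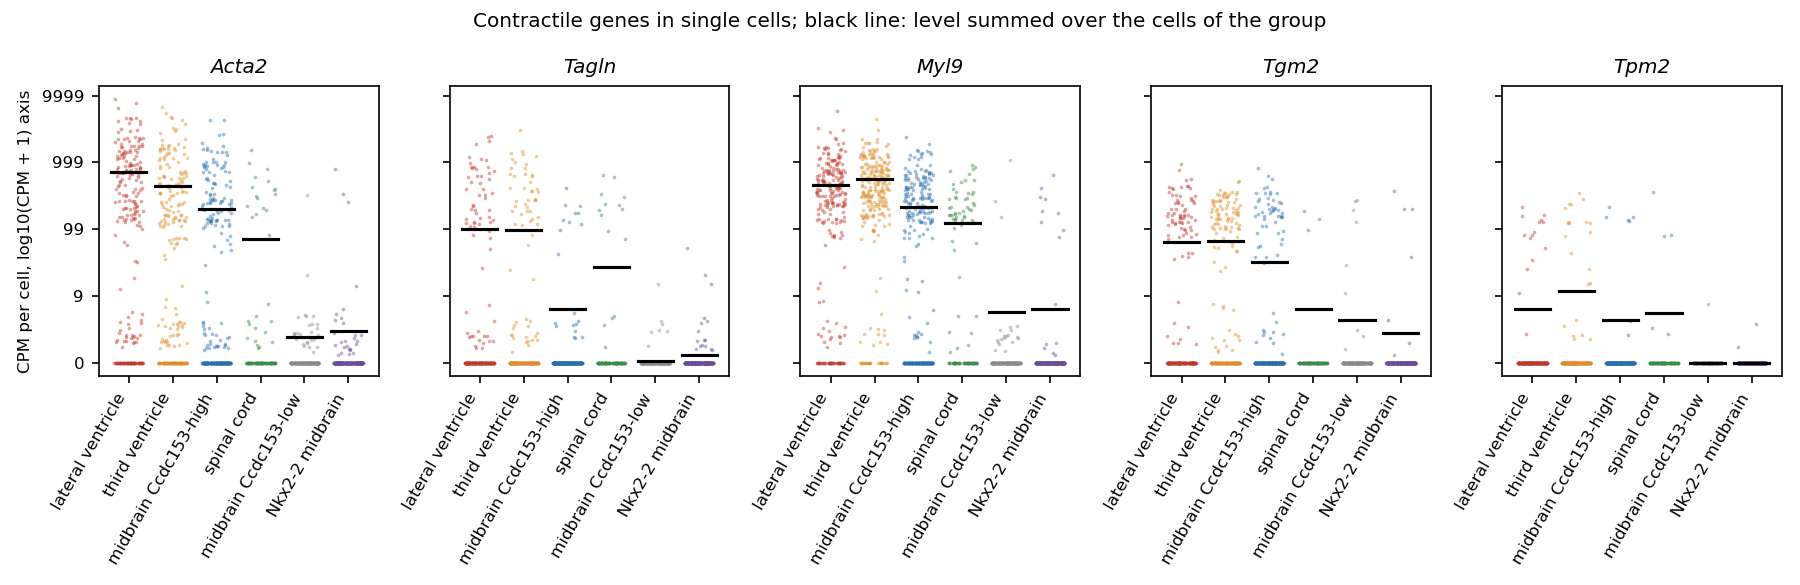
Level of each member in single cells, in CPM on a log axis with a pseudocount, by group. Each point is a cell and the black line is the level over summed reads. For Acta2 the line falls from 728 CPM in the lateral ventricle to 71.7 in the spinal cord, while cells at 0 become more frequent.

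As a check on background, shares were recomputed at equal depth. After thinning every cell to 20000 reads, which leaves no difference in depth, the share of cells with a read of Acta2 was 58.8% for the lateral ventricle, 47.3% for the third ventricle, 30.6% for Ccdc153-high midbrain cells and 14.0% for the spinal cord. In the Ccdc153-low midbrain cells, where the unthinned share was 12.6%, the thinned share was 0.435%. The shares in all 4 ependymal groups were therefore above that of the Ccdc153-low midbrain cells, a group with high levels of the subcommissural organ gene Sspo.

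The boundary of the midbrain split was not clean for these genes. The 44 midbrain cells with 500 to 1000 CPM of Ccdc153 had 0.177 CPM of Acta2 and 17.8 of Myl9, and the 15 cells with 1000 to 1500 CPM had 5.02 and 5.22. The sets had 8476 and 8532 CPM of Sspo, the gene of SCO-spondin, a product of the subcommissural organ. Without the 16 Ccdc153-high cells at or above 1000 CPM of Sspo, the midbrain levels were 211 CPM of Acta2 and 222 of Myl9, close to those of all 317 cells.

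The Nkx2-2 line gave a second look at midbrain cells from other animals. Of its 327 cells, 19 had at least 1000 CPM of Ccdc153. Their level was 38.8 CPM of Acta2, 73.6 of Myl9, 3.79 of Tgm2, 0.148 of Tagln and 0 of Tpm2. The other 308 cells had 0.183 CPM of Acta2 and 2.05 of Myl9. As in the Foxj1 midbrain, Acta2 and Myl9 were read in the Ccdc153-high cells and Tagln hardly at all, although only 3 and 4 cells reached 100 CPM of Acta2 and Myl9.

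Next, the lateral ventricle was set against each other region, over genes at 10 CPM or more in either group and with a 2-fold difference as the mark. Against the Ccdc153-high midbrain cells, Acta2 was 3.60-fold higher (log2 1.85), Tagln 18.4-fold (log2 4.20), Myl9 2.15-fold (log2 1.11) and Tgm2 2.01-fold (log2 1.01). All 4 members that met the minimum level were past 2-fold, where 2.29% of 9977 genes were higher by that much and 2.79% lower. The call for Tgm2 depended on the processing. Its log2 ratio was 0.889 with the mean of per-cell CPM and 0.898 with the authors' normalized values, so that 3 members were past 2-fold. It was 0.919 without the 2% of cells with most genes and 0.807 with midbrain cells of the first sequencing project alone. Tpm2 was 1.60-fold higher but under the minimum level. The median log2 ratio was 1.11 over these members and -0.03 over all genes. The choice of these genes drew on this contrast, so nothing is read from the count.

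Against the spinal cord, the lateral ventricle was higher for the same 4 genes, 10.2-fold for Acta2, 3.89-fold for Tagln, 3.69-fold for Myl9 and 11.7-fold for Tgm2, with 10.7% of 10317 genes past 2-fold in that direction and 10.4% in the other. Against the third ventricle, 0 of 5 members passed 2-fold either way, where 2.58% of 10063 genes were higher and 4.86% lower. There the log2 ratios were 0.72 for Acta2, 0.08 for Tagln, -0.07 for Tgm2, -0.31 for Myl9 and -0.96 for Tpm2. The lateral and the third ventricle thus had these genes at comparable levels, with Acta2 tilted to the former and Tpm2 to the latter. Without the third of the runs of 96 cell numbers of the lateral ventricle, Tpm2 was past 2-fold lower there than in the third ventricle (log2 ratio -1.77).

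The third ventricle was also above the midbrain and the spinal cord. All 5 members were over 2-fold higher than in the Ccdc153-high midbrain cells (median log2 1.41, with 5.07% of all genes past that mark and 3.12% past it the other way). They were likewise over 2-fold higher than in the spinal cord (median log2 2.19, with 12.1% and 9.35% of all genes). These comparisons share the third ventricle sample with each other and the midbrain and spinal cord samples with those above. Between midbrain and spinal cord the members split. Acta2 and Tgm2 were over 2-fold higher in the midbrain, where 10.7% of genes were, and Tagln was lower by 2.24 on the log2 scale, where 8.95% of genes were over 2-fold lower. Within the midbrain, Acta2 was 137-fold, Myl9 44.5-fold and Tgm2 9.36-fold higher in the Ccdc153-high than in the Ccdc153-low cells. The Ccdc153-low cells also differed in other genes: they had 8826 CPM of Sspo and 1587 of Spdef, both of the subcommissural organ, against 466 and 78.5 in the Ccdc153-high cells, and 23782 against 4782 CPM of early response genes. The part of these was not tested. Acta2, Myl9 and Tgm2 were the 3 members that met the minimum level, where 13.8% of genes were over 2-fold higher and 18.3% lower.

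Runs of 96 consecutive cell numbers, taken to follow the plates, show how far a level moved within a sample. Acta2 stood at 811, 287 and 1105 CPM in the 3 lateral ventricle runs and at 274, 532 and 487 in those of the third ventricle. In the 7 midbrain runs it went from 113 to 364 CPM, and the 2 spinal cord runs had 42.9 and 122. The lateral ventricle runs thus overlapped those of the midbrain for Acta2, since the second run was low.

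Tagln stood at 53.4, 62.0 and 205 CPM in the lateral ventricle runs, all above the midbrain range of 0.0581 to 8.54. Myl9 at 386, 470 and 537 CPM in the lateral ventricle overlapped the midbrain range of 124 to 391 by a single run on each side. Tgm2 had 56.3, 20.1 and 118 CPM in the lateral ventricle against 14.1 to 53.8 in the midbrain, and its lowest run was again the second. Without the third run, Tagln in the lateral ventricle was over the midbrain by 3.38 on the log2 scale in place of 4.20 and over the spinal cord by 1.14 in place of 1.96. Tgm2 was then over the spinal cord by 2.88 in place of 3.55. In the same setting, Tgm2 in the lateral ventricle was over the midbrain by 0.33 on the log2 scale and Myl9 by 0.996, both below the 2-fold mark.

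**Figure D2:**
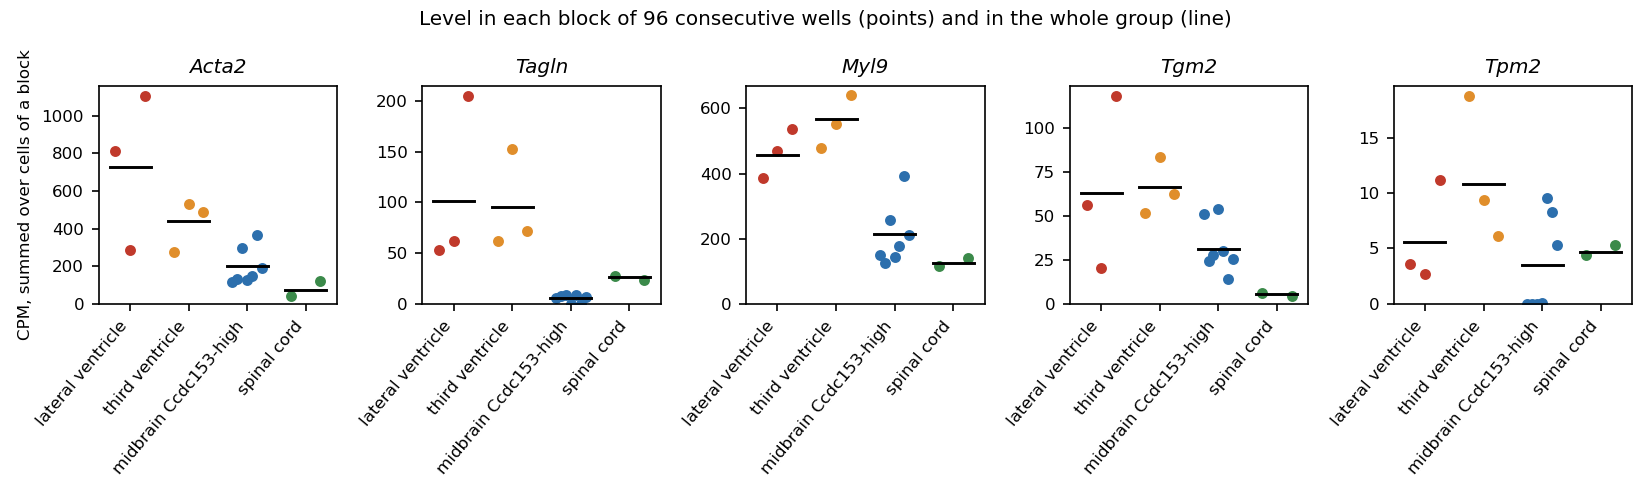
Level of each member in each run of 96 consecutive cell numbers, in CPM, by group; each point is a run with at least 10 cells. Tagln is the member whose lateral ventricle runs, at 53.4 to 205 CPM, all lie above the midbrain runs.

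The second lateral ventricle run differed from the others in detected genes and in sex-linked reads. Its median was 4423.5 detected genes per cell, against 5615 and 5873. It held 1 cell with reads of Xist among its 80, against 35 of 81 and 31 of 79 cells in the others. Over the lateral ventricle, the 67 cells with reads of Xist alone had 915 CPM of Acta2 and the 30 with reads of Y genes alone had 536. In the third ventricle the values were 584 CPM (61 cells) and 205 CPM (38 cells), and in the Ccdc153-high midbrain cells 197 (73 cells) and 179 (54 cells). Tgm2 did not follow this order in the ventricles, at 82.7 against 105 CPM in the lateral and 87.3 against 94.7 in the third. In the spinal cord 2 cells had reads of Xist alone and 50 of Y genes alone, so comparisons of all cells with the spinal cord mix sex and region. Its 50 cells with reads of Y genes alone had 88.4 CPM of Acta2. Over such cells, the lateral ventricle against the spinal cord had 533 against 149 CPM of Myl9, 105 against 6.19 of Tgm2 and 88.9 against 37.9 of Tagln. Tpm2 went the other way, at 3.15 against 3.78. The part of detected genes in the low run was not tested, and animal, plate and sex cannot be told apart here.

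The members were next compared within single cells. In the lateral ventricle 56 of 240 cells (23.3%, exact Clopper-Pearson 95% interval 18.1 to 29.2) had at least 3 members at or above 100 CPM, and 3 cells had all 5. In the third ventricle 53 of 245 cells did (21.6%, 16.6 to 27.3). The count was 8 of 317 Ccdc153-high midbrain cells (2.52%, 1.10 to 4.91) and 2 of 114 spinal cord cells (1.75%, 0.213 to 6.19). It was 0 of 230 Ccdc153-low midbrain cells (upper limit of the same interval 1.59%) and 0 of 327 cells of the Nkx2-2 line (upper limit 1.12%). Cells with several of these transcripts were thus found mainly in the 2 ventricles. The members were chosen as standing out in some ventricles, and this count rises with the share of cells high in each single member. By itself it does not show that the members were high in the same cells.

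**Figure D3:**
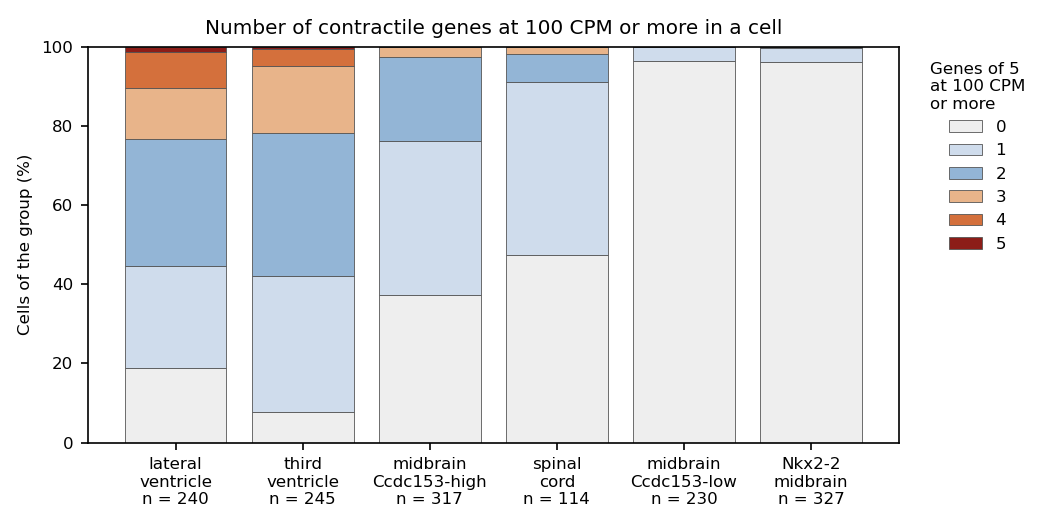
Percent of cells by how many of the 5 members stood at or above 100 CPM, as stacked bars for each group. At least 3 members were high in 23.3% of lateral ventricle cells and in 21.6% of those of the third ventricle, against 2.52% of Ccdc153-high midbrain cells.

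In the lateral ventricle, cells high in Acta2 were also more often high in the other members. Of the 139 cells at or above 100 CPM of Acta2, 38 (27.3%) were high in Tagln, against 6 of the other 101 (5.94%). For Myl9 the counts were 120 (86.3%) against 49 (48.5%), and for Tgm2 44 (31.7%) against 10 (9.90%). All 6 cells high in Tpm2 were among the Acta2-high cells.

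The same counts were less far apart in the third ventricle. Of its 111 Acta2-high cells, 25 (22.5%) were high in Tagln against 15 of the other 134 (11.2%), and 100 (90.1%) in Myl9 against 104 (77.6%). For Tgm2 they were 33 (29.7%) against 36 (26.9%). No test of this difference between the ventricles was possible.

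Correlations over cells gave the same picture, as Spearman's rho on CPM. Points within a group share the sample, so no p-value is given. The midbrain cells came from 2 sequencing projects by the numbers in the titles, and the other ependymal groups from the first of these alone. Over 240 lateral ventricle cells all 10 pairs were positive, with a mean of 0.333. The highest were Acta2 with Myl9 (0.50), Tagln with Myl9 (0.44), Acta2 with Tgm2 (0.43), Tagln with Tgm2 (0.43) and Acta2 with Tagln (0.40), and the lowest were the pairs with Tpm2, from 0.16 to 0.26. Before any adjustment, the rho of Tgm2 with Acta2 and with Tagln was thus as high as that of those 2 with each other. Acta2 and Tgm2 also both rose with the number of detected genes (rho 0.43 and 0.45), more than Tagln did (0.16). The part of this in single pairs was not tested.

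Over 245 cells of the third ventricle the mean was 0.134, led by Acta2 with Myl9 (0.32), Tagln with Myl9 (0.27) and Acta2 with Tagln (0.21). Pairs with Tgm2 lay between 0.03 and 0.12. Within runs of 96 wells the mean went from 0.231 to 0.397 in the lateral ventricle and from 0.0660 to 0.244 in the third, so the ranges overlapped. Over only those cells with a read of both genes, the mean was 0.393 in the lateral ventricle (10 pairs) and 0.331 in the third (9 pairs), which is a far smaller gap.

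Over 317 Ccdc153-high midbrain cells the mean was 0.00983. Acta2 with Myl9 stood at 0.19 and Acta2 with Tagln at -0.14. Over 114 spinal cord cells the mean was 0.00645, with Acta2 and Tagln at 0.18. In these regions most members were read in few cells, and a weak correlation in sparse reads is no finding.

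**Figure D4:**
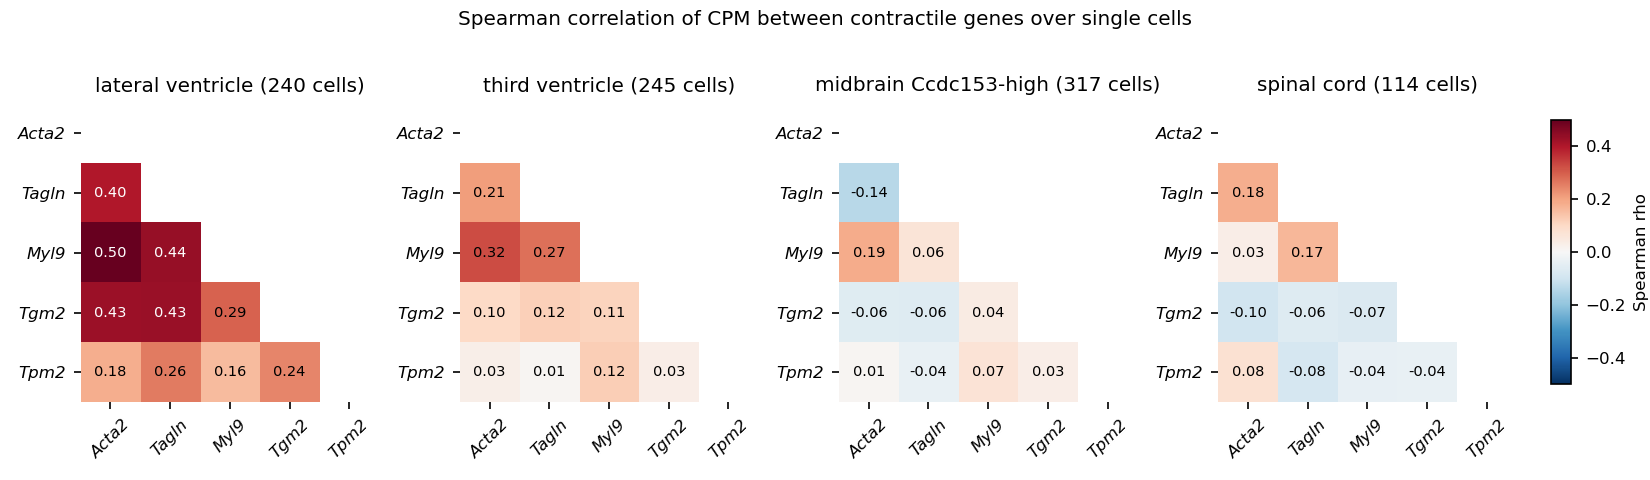
Spearman's rho between pairs of members over single cells, with a panel for each of the 4 ependymal groups, shown as colour and number. All 10 pairs are positive in the lateral ventricle, with a mean of 0.333, and the midbrain mean is 0.00983.

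The number of detected genes per cell moved with some members in the lateral ventricle. Its rho was 0.43 with Acta2 and 0.45 with Tgm2, but 0.16 with Tagln, 0.09 with Myl9 and 0.13 with Tpm2. With the number of detected genes held constant by partial correlation, the mean over the 10 pairs was 0.305, so the mean was nearly as large. Adjusted values of single pairs are not given, and a pair such as Acta2 with Tgm2 may have moved more than the mean.

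Cells high in Acta2 had the markers of ependymal cells. In the lateral ventricle all 139 had reads of Foxj1, at 500 CPM against 475 in the other 101 cells. The summed level of 7 ependymal markers was 11660 CPM in the former and 13954 in the latter. The ependymal markers had a median mean rho with the members of -0.153, with Tmem212 at -0.32 and Ccdc153 at -0.25, and the markers of astrocytes and neural stem cells one of 0.169, with Slc1a3 at 0.30. In the median, higher levels of the members thus went with lower ependymal and higher astrocyte-type markers in the lateral ventricle. Of the 7 ependymal markers 2 were at -0.2 or less, and Foxj1 stood at 0.015. Of 5 astrocyte-type markers with a value 1 reached 0.2, and Gfap stood at 0.065. Both sets of cells had the ependymal markers at high levels. In Ccdc153-high midbrain cells the ependymal sum ran the other way, at 13148 CPM in Acta2-high cells against 12094. In the spinal cord it was 6598 against 7008. Markers of smooth muscle in the table, 3 of a list of 6 (Cnn1, Lmod1 and Mustn1), summed to 12.96 against 4.31 CPM in the lateral ventricle.

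In the same lateral ventricle cells, to which all values of this paragraph belong, pericyte markers, 4 of 9 in the table, summed to 0.524 against 3.58 CPM. Vtn was at 0 in both sets, Pdgfrb at 0.169 against 0, and Cspg4 at 0 against 3.58 CPM. Myh11, the smooth muscle myosin, was on the smooth muscle list but not among the genes measured, so no level can be given for it. Perivascular fibroblast markers, 3 of 6 in the table, summed to 20.9 against 1.22 CPM, and 6 markers of astrocytes and neural stem cells to 2079 against 1368. Oligodendrocyte markers summed to 103 against 33.5 CPM, choroid plexus markers to 456 against 474, microglial markers to 9.93 against 5.48 and neuronal markers to 2.22 against 6.83. The part of these in the result was not tested.

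In the third ventricle, cells at or above 100 CPM of Acta2 had 11553 CPM of ependymal markers and the others 12108. Smooth muscle markers summed to 34.4 against 27.3 CPM there, and pericyte markers to 5.48 against 6.61. Of the smooth muscle markers, Lmod1 stood at 6.46 against 0.0187 CPM, Cnn1 at 12.3 against 14.7 and Mustn1 at 15.6 against 12.6. Perivascular fibroblast markers summed to 54.1 against 41.8 CPM, astrocyte and neural stem cell markers to 3138 against 2508 and neuronal markers to 8.42 against 54.2. The part of these was not tested.

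Genes most like the members were ranked by their mean rho with the 5, over lateral ventricle cells, among genes at 10 CPM or more and read in at least 10% of cells. Beside the members, 9355 genes met this, with a median of 0.0318 and a 99th percentile of 0.215. The 10 highest were Shisa4 (0.370), S100a6 (0.355), Htr5b (0.346), Timp4 (0.343), Acsbg1 (0.338), Lrp2 (0.337), Sparc (0.336), Fxyd1 (0.333), Sfrp1 (0.330) and Etnppl (0.328). S100a6 is a calcium-binding protein, Htr5b a serotonin receptor, Timp4 an inhibitor of matrix metalloproteinases, Lrp2 an endocytic receptor, Sparc a matrix-associated glycoprotein and Sfrp1 a secreted Wnt antagonist.

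At the other end stood Calml4 (-0.322), Tmem212 (-0.321), Cdh26 (-0.300), Tmem107 (-0.293) and X1500015o10rik (-0.293). Tmem107 belongs to the ciliary transition zone, and Tmem212 was among the ependymal markers. A mean rho of 0.2 or more was reached by 126 genes (1.35%) and one of -0.2 or less by 38 (0.406%).

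Few of these rankings carried over to other regions. Of the 10 highest genes in the lateral ventricle, 4 were also among the 10 highest in the third ventricle (Etnppl, Htr5b, Lrp2 and Timp4) and 0 among those of the midbrain or the spinal cord. In the third ventricle Lrp2 stood at 0.218, Htr5b at 0.176 and Timp4 at 0.167, while Shisa4 and S100a6 stood at 0.0370 and 0.0412. In the Ccdc153-high midbrain cells the highest values were 0.114 for Gm15720 and 0.107 for Calm2, and the 10 reached down to 0.0941.

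**Figure D5:**
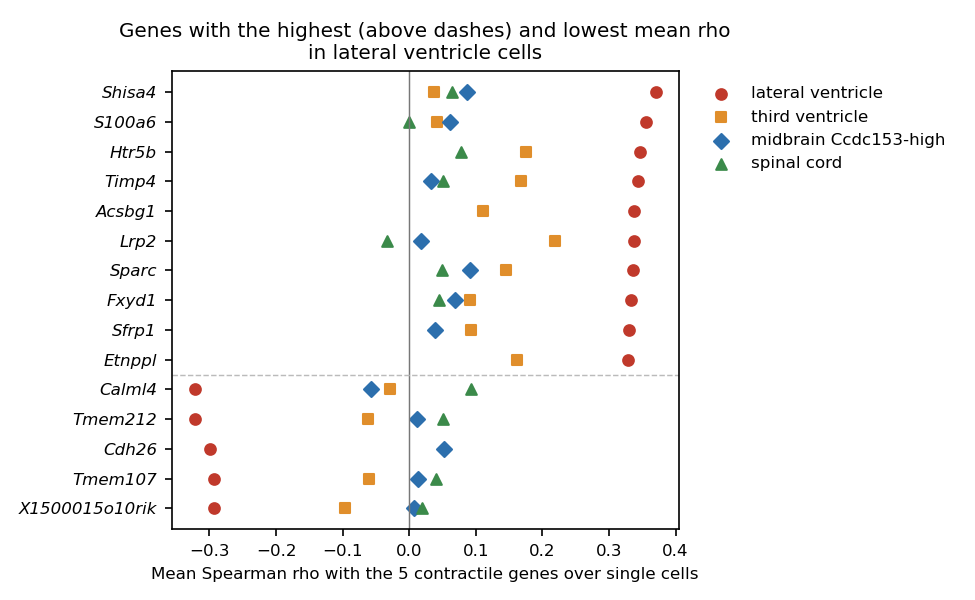
Mean Spearman's rho with the 5 members, for the 10 highest and the 5 lowest genes of the lateral ventricle, in each of 4 regions. The lateral ventricle values, from -0.322 to 0.370, are extreme because the genes were picked there, and only the other regions show how far they carry over. A gene under the minimum level or share of cells in a region has no point there.

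Single members had partly different neighbours. The 3 nearest genes of Acta2 were Myl9 (0.50), Actb (0.49), which encodes cytoplasmic beta actin, and Shisa4 (0.45). Those of Tagln were Htr5b (0.44), Myl9 (0.44) and Tgm2 (0.43), and Myl9 had Acta2, Tagln and S100a6 (0.42). Tgm2 had Sfrp1 (0.48), Srl (0.45) and Sec24d (0.44), and Tpm2 had Acsbg1 (0.32), Ddah2 (0.30) and Zfp768 (0.29).

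Other contractile and actin-associated genes were taken from a list. Of 37 listed, 35 were in the table. Between the lateral ventricle and the Ccdc153-high midbrain cells, 27 met the minimum level, of which 2 were over 2-fold higher, Cnn2 (13.8 against 2.08 CPM) and Tagln3 (29.7 against 9.78), and 0 lower. The median log2 ratio of the list was 0.17, against -0.03 over all genes and 1.11 over the members. Against the third ventricle 1 gene, Csrp2 (570 against 269 CPM), was higher and 3 lower of 29 (Cnn1, Mylk and Tagln3). Against the spinal cord 4 of 28 were higher (Cnn2, Mylk, Myh9 and Tagln3) and 2 lower (Myl6 and Vcl). Mylk encodes the kinase that phosphorylates the myosin light chain, and stood at 17.5 CPM in the lateral ventricle, 39.1 in the third, 17.1 in the midbrain and 0.0106 in the spinal cord.

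By mean rho in the lateral ventricle, the list had a median of 0.0671 over 27 genes, against 0.0318 over all, and 4 reached 0.2. These were Actb (0.33), Cnn2 (0.22), the nonmuscle myosin heavy chain Myh10 (0.22) and Synpo2 (0.21). Actb itself differed little by region, at 3265 CPM in the lateral ventricle, 3716 in the third, 3394 in the midbrain and 3190 in the spinal cord. The sarcomeric actins, whose coding sequences closely resemble Acta2, were near 0 in the lateral ventricle, Acta1 at 1.03 and Actc1 at 1.96 CPM. Actg1, a further actin gene of the list, was at 1.48 CPM there. How reads shared between actin genes were counted is not given in the sources used here. The low values of these genes, and the level of Acta2, may therefore depend on the counting, which was not tested.

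Regulators of such genes were looked at by list. Of the SRF, MRTF and YAP regulators and targets 14 were in the table, and 0 of the 8 that met the minimum level passed 2-fold between lateral ventricle and midbrain in either direction. Srf itself had 47.3 CPM in the lateral ventricle, 41.8 in the third, 43.9 in the midbrain and 22.3 in the spinal cord. Myocd, which encodes myocardin, was at 1.92, 1.36, 0.0117 and 13.7 CPM in the same order. Among the 4 ependymal groups, Myocd was thus highest in the spinal cord, where Acta2 was lowest, but it was read in under 10% of cells there. The other groups did not follow a reverse order. Myocd was at 0 CPM in the Ccdc153-low midbrain cells and 0.00464 in the Nkx2-2 line, where Acta2 was at 1.48 and 2.00. Of 8 genes of this list, 1 reached a mean rho of 0.2, the YAP target Ccn1 (0.23).

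Of the TGF-beta list, 11 of 13 genes were in the table and 7 met the minimum level between lateral ventricle and midbrain, with 1 higher, the ligand Tgfb3 (10.5 against 3.26 CPM), and 0 lower. Tgfbr2, the type II receptor, had 262 CPM in the lateral ventricle, 126 in the third, 204 in the midbrain and 18.1 in the spinal cord. Tgfb2, a ligand, had 51.9, 71.9, 56.4 and 3.25. Both were therefore lowest in the spinal cord, and neither reached a mean rho of 0.2. Of the retinoid list, which was set beside Tgm2 because retinoic acid induces that gene, 0 of 6 were over 2-fold higher than in the midbrain and 1 was lower, the retinal dehydrogenase Aldh1a1 (7.39 against 24.99 CPM). Tgm1, another transglutaminase, had 2.58 CPM in the lateral ventricle.

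The summed level of early response genes, which are known to rise when tissue is dissociated, moved in the opposite order to Acta2. The 7 listed summed to 1393 CPM in the lateral ventricle, 2705 in the third, 4782 in the Ccdc153-high midbrain cells and 5713 in the spinal cord. Fos held much of this sum, at 788, 1498, 2523 and 3485 CPM in the same order. Fosb, Jun, Egr1, Ier2 and Atf3 were higher in the midbrain than in the spinal cord, and only Fos and Junb were lower. All 7 were over 2-fold lower in the lateral ventricle than in the midbrain, where 2.79% of genes were. Over single cells the mean rho of each with the members went from -0.0400 to 0.0554 in the lateral ventricle, from -0.0924 to -0.0330 in the third, from -0.0619 to 0.0104 in the midbrain and from 0.0544 to 0.122 in the spinal cord. The 1st percentile of all genes was -0.0786 in the third ventricle and -0.0557 in the midbrain, and the 99th was 0.126 in the spinal cord. Their part in the regional differences was not tested.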

How the data were processed

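The tables hold 1473 cells and 16347 genes. Cells were sorted into plates and made into Smart-seq2 libraries, per the labels' protocols. STAR 2.3.1o, Seurat 3 and the mm10 build are named in the submitters' processing notes, while the counting tool, annotation and strand setting are not given in the sources used here. The authors deposited raw counts per gene and cell, which were used throughout. Their second deposited table holds log2 values, equal to log2 of count over a size factor (0.0875 to 6.00) plus 1 within 0.01 for 100% of values, and served as an alternative.

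The prefix of each column name gave its sample, and 0 columns had none. No cell was removed and no doublet caller was run. Depth was 108417 to 7182157 reads per cell. Counts were summed per group and scaled to CPM with exact Poisson 95% intervals. Shares have exact Clopper-Pearson intervals, also where the count is 0. Smart-seq2 reads carry no molecular identifiers, so intervals and limits cover counting error only. With 1 sample per group there are no p-values. Log2 ratios used genes at 10 CPM or more in either group. Correlations over cells were Spearman's. Gene positions are from GENCODE vM21 (GRCm38) and promoters from RefSeq. Python 3.11.15, numpy 2.4.6, pandas 2.3.3 and scipy 1.17.1 were used, and the ratio and correlation steps were tested on simulated data.

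The members and the gene lists were chosen with earlier results of these data known. The genes named are the members, list genes at the ends of their list, the 10 highest and 5 lowest genes by mean rho in the lateral ventricle, the 10 highest in the midbrain and the 3 nearest of each member. Other list genes past 2-fold, Srf, Myocd, Tgfb2, the actins and single marker genes were named after their values were seen. Alternatives covered the scaling, the mean of per-cell CPM, the split and minimum level, thinning, the threshold for a high cell, and left-out runs and cells. The Nkx2-2 line split by Ccdc153, the cells without Sspo, the sets by Xist reads, and the partial correlation were added after the values were seen.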

Additional observations from a re-analysis of the deposited data

How the results depend on the processing

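The share of cells with at least 3 members high moved with the threshold. At 10 CPM it was 30.0% in the lateral ventricle and 31.4% in the third ventricle, and at 1000 CPM it was 2.08% and 1.63%, with 0% in the Ccdc153-high midbrain cells and 0% in the spinal cord. Over only cells with a read of both genes, the mean rho was 0.331 in the third ventricle, 0.158 in the Ccdc153-high midbrain cells (4 pairs) and 0.315 in the spinal cord (2 pairs), and here the alternative leaves far fewer cells and pairs. Leaving out each lateral ventricle run in turn gave a median log2 ratio of 0.996 to 1.42 against the midbrain, -0.736 to 0.333 against the third ventricle and 1.77 to 2.32 against the spinal cord. Of the values for the regions as a whole, 9 moved and 68 stayed within the limit set. That limit was the spread between runs, the counting interval or, for counts of members, 1.5 times. The left-out runs are among the 68, judged by the spread of only 3 runs. So is the count against the midbrain, which went from 4 to 3 with the mean of per-cell CPM and with the authors' normalized values. Among values past the 2-fold mark, 0 changed direction. The ratio to the third ventricle, which lay near 0, did change sign between left-out runs, and that of Tpm2 to the midbrain went to -0.135 without the third run and that to the spinal cord to -0.577. With midbrain cells of the first sequencing project alone, the log2 ratio of Myl9 was 1.36 in place of 1.11 and that of Tpm2 1.39 in place of 0.68. The latter was 1.19 with the mean of per-cell CPM. The order of the 4 ependymal groups was the same for each member in the settings of scaling and left-out cells compared. Of 90 levels recomputed, 2 moved by over 1.5 times, both on leaving out the spinal cord cell with most reads, Tgm2 from 5.37 to 3.22 CPM and Tpm2 from 4.71 to 2.78 CPM. No paired analysis was possible because each group is a single sample. Tpm2 rests on few cells, as do the members other than Myl9 in the spinal cord, where Myl9 was read in 55 of 114 cells.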
